A study of Mus musculus with 105 samples.

Results

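Allele-specific (AS) expression of autosomal genes was compared between the B6 and the Cast chromosomes of undifferentiated TX1072 cells, before the onset of X inactivation. TX1072 is a female mouse embryonic stem cell (mESC) line derived from a cross of C57BL/6 (B6) with CAST/EiJ (Cast), so every autosome is present as a B6 and a Cast copy. Genes on chromosomes 1 to 19 were taken if the B6 and Cast counts of the 3 TX1072 bulk RNA-seq libraries of day 0 summed to 100 or more. This rule took 9526 of the 52108 genes in the count tables, of which 9180 were protein-coding. Their summed AS counts ranged from 100 to 111272 with a median of 794. At the limit, 14 autosomal genes had exactly 100 counts and were taken, 22 genes had 99 and were not, and 26399 autosomal genes had no AS count.

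In a hybrid cell the alleles of a gene share a nucleus and therefore the same transcription factors, signals and culture medium. A gene that gives more RNA from one parental chromosome than from the other therefore carries a difference in cis, either in its DNA sequence, such as a variant in a promoter, enhancer or RNA stability element, or in chromatin that is inherited with the chromosome, as at imprinted genes. Naive mESCs kept with inhibitors of Gsk3 and MEK together with Lif (2i/Lif) express the pluripotency network and carry little DNA methylation, and imprints can be lost in such cultures.

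In the TX1072 cells (clone A3), Xist on the B6 X chromosome can be switched on with doxycycline through an inserted promoter, and the rtTA activator this needs is expressed from Rosa26. At day 0 they had been kept in serum with Lif, the Gsk3 inhibitor CT-99021 and the MEK inhibitor PD0325901. Cells of 2 derived clones were kept in the same way and gave 3 libraries each. They carry a Cas9-made deletion of the X inactivation centre, on the B6 X chromosome in TXΔXicB6 (clone TxdXic_A1, chrX:103182701-103955531 of mm10) or on the Cast X chromosome in TXΔXicCast (clone TxdXic_A6, chrX:103182257-103955698). Each line is a single clone, and the direction of the original cross is not given in the sources used here. The deletion lines were prepared with another kit and sequenced with longer reads, so line, kit and read length cannot be told apart, and the RNA of TXΔXicCast at day 0 was partly degraded per the labels.

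The TX1072 libraries held 38242822, 27561452 and 23879805 counts, of which 19.9%, 20.3% and 18.1% were assigned to an allele. The share was 31.4% to 34.2% in 5 of the 6 libraries of the deletion lines but 5.21% in TXΔXicB6 replicate 1, the least precise of them. The labels matched the data at the X inactivation centre. The 46 genes inside the deleted interval had no B6 count in any TXΔXicB6 library, against 47, 452 and 454 Cast counts. In TXΔXicCast they had 212, 572 and 554 B6 counts against 1, 4 and 1 Cast counts, and in TX1072 56.0% to 59.1% of their counts came from B6. Gt(ROSA)26Sor, the locus of the transgene, lay at 95.1%, 89.5% and 92.9% on B6 in TX1072, with 19 counts in replicate 2. The 9 naive markers Pou5f1, Sox2, Nanog, Esrrb, Zfp42, Klf4, Tfcp2l1, Tbx3 and Dppa5a summed to 7587, 7626 and 7820 CPM, counts scaled to the library total, in the TX1072 libraries, with Tfcp2l1 as the most abundant (2094, 2290 and 2078 CPM). Formative markers (Fgf5, Otx2, Pou3f1, Dnmt3b) summed to 190, 257 and 192 CPM, most of it Dnmt3b, with Fgf5 at or below 0.183 CPM. Endoderm markers (Gata6, Sox17, Foxa2, Gata4) summed to 0.968 to 1.76 CPM, mesendoderm markers (T, Eomes, Mixl1) to 12.1 to 15.9 CPM, neural markers (Pax6, Sox1, Nes) to 33.6 to 42.8 CPM with Nes as the most abundant, and trophoblast markers (Cdx2, Elf5) to 7.01 to 16.6 CPM. Fibroblast markers that feeder cells would carry summed to 19.7 to 27.0 CPM, with Col3a1 at 0 in all 3 libraries. Bulk RNA gives a single value for the whole culture, so fewer cells of a type and less RNA per cell cannot be told apart, nor can a 50% share in every cell from a mixture of cells that each use a single allele.

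The autosomes were close to balanced as a whole, with a small excess of B6. B6 received 51.3%, 51.3% and 51.2% of all autosomal AS counts. The median gene lay at a log2 ratio of B6 over Cast of 0.066, 0.054 and 0.055 in the 3 libraries, each with 1 count added to both alleles, which gave a mean of 0.058 ± 0.0067 (SD, n = 3). All 3 libraries lay above 0, and the exact two-sided sign-flip test gave p = 0.25, the smallest value that 3 libraries allow. Per chromosome the mean of the medians ran from -0.037 ± 0.012 on chromosome 19 to 0.12 ± 0.0087 on chromosome 3, while the 313 X-linked genes with as many counts lay at 0.0025 ± 0.034 (SD, n = 3 each). The middle of the gene distribution was narrow and its tails were long. From the 25th to the 75th percentile of genes the B6 share of summed counts, that is B6 counts over B6 plus Cast counts, went from 46.2% to 56.3%, and from the 1st to the 99th percentile from 10.0% to 92.9%.

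Differences between the alleles were common but mostly small. With edgeR's quasi-likelihood test, the library as a block and Benjamini-Hochberg adjustment over all fitted genes, 2739 of the 9526 genes (28.8%) were higher on B6 and 1927 (20.2%) were higher on Cast, together 4666 genes or 49%. A gene is called here when its adjusted p is 0.05 or less. Of the called genes, 4585 lay on the same side in all 3 libraries, which are those that made the calls. With no test, 38.3% of the 9526 genes lay on the B6 side in all 3 libraries and 28.4% on the Cast side. The median size of a call was 0.63 on the log2 scale. The alleles differed by at least 2-fold in 774 genes towards B6 (8.13%) and in 593 towards Cast (6.23%), together 14.4%. Without the library term, 1325 genes were called towards B6 and 944 towards Cast, all of them among the genes above. DESeq2 called 1660 and 1116 genes. With TMM factors per allele 2387 and 2254 genes were called, so that 51.4% of the calls lay on B6 in place of 58.7%.

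**Figure D1:**
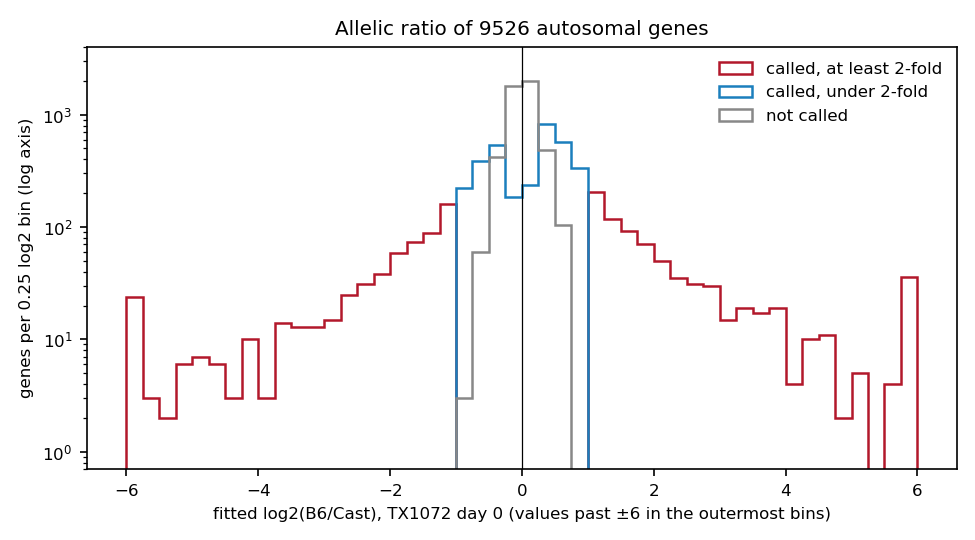
Histogram of the fitted log2 ratio of B6 over Cast of the 9526 autosomal genes in TX1072 at day 0, in bins of 0.25 on a log count axis, with outlines for genes not called (grey), called under 2-fold (blue) and called with at least 2-fold (red). Most genes lie near 0, and the red tails hold 774 genes on the B6 side and 593 on the Cast side.

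A small set of genes had nearly all of its counts on a single allele in TX1072. By the 90% limit that the study uses for skewed genes, applied to each of the 3 libraries and with no test, 103 genes were monoallelic for B6 (1.08%) and 77 for Cast (0.808%), together 1.89%. The 180 genes had a median of 398 AS counts, 75 of them had 500 or more, 140 were protein-coding, and every autosome held between 4 and 18 of them. All 180 were also called by the allele test, which uses the same counts and therefore adds no support. In the deletion lines 119 of them lay beyond 90% in the summed counts, and 39 had a SNP stretch in another gene, a measure explained below. A single gene of the imprinted lists described below, Dio3, was among them.

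At the extreme, 11 genes (0.115%) had no Cast count and 8 genes (0.084%) had no B6 count in any TX1072 library. Gc encodes the vitamin D-binding protein of plasma and lies at chr5:89417522-89457898. It had 441, 311 and 296 B6 counts in the 3 libraries and no Cast count, so it was at least 349-fold higher on B6 when 3 counts over the 3 libraries are taken as the floor. All 902 AS counts of the deletion lines were on B6 as well. The cells therefore made this RNA from the B6 copy in 9 of 9 libraries, at 17.0 CPM in TX1072 replicate 1. Olig2, a transcription factor of the oligodendrocyte lineage at chr16:91225457-91228677, had 237, 193 and 164 B6 counts and no Cast count, at least 198-fold higher on B6, and lay at 99.6% to 100% in the deletion lines. Sytl3, a synaptotagmin-like effector of Rab27 at chr17:6659093-6738044, was the reverse case, with no B6 count against 310, 259 and 126 Cast counts, at least 232-fold higher on Cast. In the deletion lines its B6 share lay between 0 and 0.281% of 5050 counts. The other protein-coding genes without a Cast count were Nefm, the medium neurofilament subunit (499 B6 counts), Bcl2l14 (369) and Clca3b (118), beside Rpl31-ps8, Mir703, Gm10499, Gm7666, Gm8909 and Gm12100. Without a B6 count were also the chemokine Ccl9 (443 Cast counts), Dok5 (247), Mboat4, which acylates ghrelin (226), and Hsd11b1, which regenerates active glucocorticoids (138), beside Rprl2, Fbl-ps2 and Llph-ps1. Of these 19 genes, 17 kept their direction in the deletion lines. The fitted log2 ratio of Llph-ps1 was 0.34 there. For Rprl2 the fit returned 0, the same value as for Rprl3, which may stand for a lack of AS counts and gives no direction. In the single cells described below, Rprl2 had 1 UMI (unique molecular identifier) on B6 and 96 on Cast, and Llph-ps1 had 1 and 77.

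Further genes kept a trace of the other allele. Lncenc1 is a long non-coding RNA of naive mESCs at chr13:97434970-97497007 and was among the strongest monoallelic genes by count. Its B6 and Cast counts were 4236 and 6, 2715 and 2, and 2425 and 0, a log2 ratio of 10.13 ± 0.14 (SE, adjusted p = 6.68e-20), and 10.21 ± 0.10 in the deletion lines. The ratio rests on 8 Cast counts and was 11.16 without replicate 1 and 9.72 without replicate 3. Myo7a, an unconventional myosin, had 894 B6 and 2 Cast counts, a ratio of 447 with a 95% exact binomial interval from 123 to 3697 that covers counting error only. The long non-coding RNA C78283 had 1003 and 3 counts (ratio 334, interval 114 to 1624), and Uggt2, which reglucosylates misfolded glycoproteins in the endoplasmic reticulum, had 537 and 2 (ratio 268, interval 74.0 to 2223). Both Cast counts of Myo7a came from replicate 3 and both of Uggt2 from replicate 2. Their fitted log2 ratios of 8.55 and 7.82 were 7.82 and 6.83 without replicate 1, and 11.47 and 10.66 without the replicate that held the Cast counts, where the fit meets a count of 0 and gives no bound. Lncenc1, Myo7a, C78283 and Uggt2 lay above 98% on B6 in each of the 9 libraries. Towards Cast, Abcc3, an exporter of conjugated organic anions, had 2, 1 and 2 B6 against 204, 244 and 101 Cast counts (log2 ratio -6.67 ± 0.28, adjusted p = 3.15e-13). The long non-coding RNA AU020206 had 12, 7 and 9 against 679, 462 and 462 (-5.82 ± 0.14, adjusted p = 1.5e-16). Neither gene exceeded a B6 share of 3.45% in any library of the deletion lines. Nefl, the light neurofilament subunit, which lies on chromosome 14 as does Nefm, had 1003 B6 and 12 Cast counts. Chosen after their values were seen, Ephx2, the soluble epoxide hydrolase, had 1205 and 13 counts towards B6, and Klb, the co-receptor of Fgf21, had 37 against 1380 towards Cast.

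The stretches of DNA upstream of 5 genes of the naming rule are shown because they hold SNPs between the strains next to the start of a gene with a strong allelic difference. They are RefSeq promoter windows of GRCm38.p6, read on the strand of the gene from up to 250 bases before the start and cut at the first annotated start. The B6 bases are printed, and capitals mark the positions at which Cast carries another base. The first 2 genes were higher on B6, the other 3 on Cast.
Gc, chr5:89457899-89458148, minus strand: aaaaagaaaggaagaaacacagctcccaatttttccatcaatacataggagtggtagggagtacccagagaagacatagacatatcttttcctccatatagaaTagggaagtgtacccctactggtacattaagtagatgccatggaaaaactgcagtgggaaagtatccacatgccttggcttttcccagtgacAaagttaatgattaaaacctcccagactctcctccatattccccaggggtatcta
Lncenc1, chr13:97434720-97434969, plus strand: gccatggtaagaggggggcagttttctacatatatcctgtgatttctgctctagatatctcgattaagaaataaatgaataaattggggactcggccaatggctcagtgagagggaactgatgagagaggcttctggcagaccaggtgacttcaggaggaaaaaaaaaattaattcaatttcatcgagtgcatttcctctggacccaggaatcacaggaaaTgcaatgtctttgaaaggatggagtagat
Dstn, chr2:143915081-143915319, plus strand: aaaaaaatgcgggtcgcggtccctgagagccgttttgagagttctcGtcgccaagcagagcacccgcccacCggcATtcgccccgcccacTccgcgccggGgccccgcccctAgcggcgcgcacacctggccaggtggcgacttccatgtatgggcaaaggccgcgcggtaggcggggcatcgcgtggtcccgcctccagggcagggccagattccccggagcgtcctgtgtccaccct
Echdc2, chr4:108165187-108165436, plus strand: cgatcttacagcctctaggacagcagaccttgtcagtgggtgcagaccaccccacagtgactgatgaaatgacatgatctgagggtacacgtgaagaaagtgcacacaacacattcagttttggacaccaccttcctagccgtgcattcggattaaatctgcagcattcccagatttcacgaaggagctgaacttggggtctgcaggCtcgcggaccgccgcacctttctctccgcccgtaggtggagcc
L1td1, chr4:98726504-98726733, plus strand: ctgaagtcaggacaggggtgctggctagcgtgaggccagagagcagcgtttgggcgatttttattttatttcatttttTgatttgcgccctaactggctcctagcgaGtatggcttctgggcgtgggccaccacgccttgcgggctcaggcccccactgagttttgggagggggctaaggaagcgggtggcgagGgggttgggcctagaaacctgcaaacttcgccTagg

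With positions counted from 1 at the 5′ end of each printed sequence, the B6 base first and the Cast base last, the substitutions are T104C and A196G for Gc, T222C for Lncenc1 and C208G for Echdc2. L1td1 carries T79C, G108C, G195A and T227G, and Dstn carries 7, namely G47C, C72T, A76G, T77C, T91C, G101A and A113G. Such SNPs were frequent in promoters at large. Of the 6005 members with a single promoter window, 55.3% held at least 1 SNP in it, against 61.3% of the 2-fold genes towards B6, 62.2% of those towards Cast and 52.4% of the genes not called. Among the monoallelic genes with a window it was 73.3% of 45 for B6 and 53.5% of 43 for Cast. The median number of SNPs per kb of exon was 4.88 for all members and 6.03 and 6.00 for the 2-fold genes towards B6 and Cast. More SNPs also give more reads that can be assigned to an allele, and the part of this in the shares was not tested.

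Genes of high expression were also among those with at least 2-fold differences, where many reads fix the ratio closely. Tfcp2l1, a transcription factor of the naive pluripotency network at chr1:118627945-118685168, had the most AS counts of them. Its B6 and Cast counts were 28501 and 9513, 21581 and 7510, and 16439 and 5983, so that 74.98%, 74.2% and 73.3% came from B6. The log2 ratio was 1.52 ± 0.033 (SE, adjusted p = 1.59e-17), and 1.35 ± 0.022 in the deletion lines. Spp1, the secreted phosphoprotein osteopontin, had 72.0%, 72.2% and 72.5% of its counts on B6, a log2 ratio of 1.38 ± 0.034 (adjusted p = 1.53e-16). In both genes the 3 libraries lay within 2 percentage points of each other and far from 50%.

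On the Cast side the most counted genes with no copy of their SNP stretches elsewhere were Cds2, Dstn, L1td1 and Echdc2. Cds2 makes CDP-diacylglycerol for phosphoinositide synthesis, and 25.4%, 27.2% and 24.8% of its counts came from B6 (log2 ratio -1.52 ± 0.047, adjusted p = 3.97e-15). Dstn encodes the actin-depolymerizing factor destrin, and its B6 share was 29.2%, 29.0% and 31.4% (-1.24 ± 0.047, adjusted p = 8.55e-14). L1td1, an RNA-binding protein of pluripotent cells derived from a LINE-1 element, lay at 31.8%, 32.9% and 31.4% (-1.08 ± 0.045, adjusted p = 3.2e-13). Echdc2, an enoyl-CoA hydratase family member, lay at 31.2%, 28.2% and 32.2% (-1.19 ± 0.052, adjusted p = 6.84e-13). All 4 genes were higher on Cast in 9 of 9 libraries, with B6 shares between 23.5% and 35.1% in the deletion lines.

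**Figure D2:**
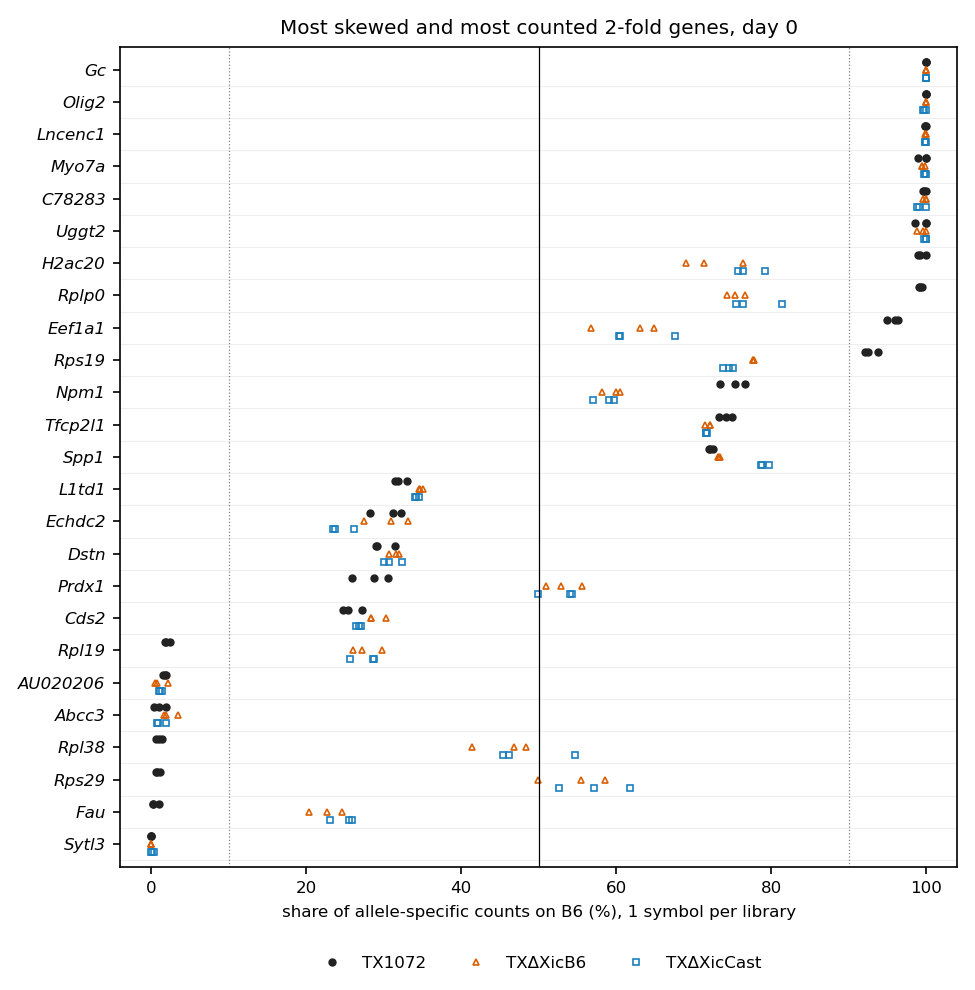
Share of AS counts on B6 in percent for the genes most skewed to either allele and the most counted genes with at least 2-fold difference, 1 symbol per library of TX1072 (filled circles), TXΔXicB6 (triangles) and TXΔXicCast (squares), with dotted lines at 10% and 90%. The symbols of Gc, Olig2, Lncenc1, Sytl3, Tfcp2l1, Cds2 and Dstn nearly coincide between lines, whereas those of Rplp0, Eef1a1, Rps29, Rpl38 and Prdx1 do not.

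Factors of the pluripotency network differed between the alleles in both directions, at the median about as strongly as other genes. All 30 listed factors were members, and 14 were higher on B6, 6 were higher on Cast and 10 were not called, with a median log2 ratio of 0.08 beside 0.06 over all members. The share called was 66.7% beside 49% of all members, but the median absolute log2 ratio was 0.29 beside 0.30. Calls also depend on counts, with a median of 1298 AS counts for genes called under 2-fold and 672 for genes not called. Zfp42 (Rex1), a classical marker of the naive state, was higher on Cast. It had 355 B6 and 3546 Cast counts, 204 and 2455, and 132 and 1786, a B6 share of 9.10%, 7.67% and 6.88% and a log2 ratio of -3.52 ± 0.073 (SE, adjusted p = 9.99e-18). Dppa2, which binds and activates promoters of early embryonic genes, was higher on B6 with 90.6%, 90.1% and 93.6% (3.33 ± 0.145, adjusted p = 5.73e-13). Both genes were monoallelic by the 90% limit. Each has a Cast version of a SNP stretch in the transcript of another gene, although Cast was the higher allele of Zfp42 and the lower allele of Dppa2. The ratios of both genes were nearer to 0 in the deletion lines, -2.54 ± 0.049 for Zfp42 and 2.20 ± 0.091 for Dppa2. The part of read placement was not tested. Prdm14, a repressor that keeps DNA methylation low in naive cells, was higher on Cast with B6 shares of 20.5%, 25.5% and 22.9% (-1.75 ± 0.066, adjusted p = 8.08e-14).

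Further members with at least 2-fold differences were Tfcp2l1 (above), Tdgf1, the Nodal co-receptor Cripto, with a log2 ratio of 1.59, and Lifr, the receptor subunit for Lif, with 1.297, each higher on B6 in all 9 libraries. Smaller differences towards B6 were called for Sox2, a core factor (59.5%, 60.5% and 58.7% on B6), and towards Cast for Klf5 (36.5%, 36.7% and 39.4%) and for Dppa3 (Stella), which protects methylation in the zygote (35.9%, 35.2% and 38.9%). The core factors Pou5f1 (Oct4), Esrrb and Klf4 were not called, at log2 ratios of -0.01 ± 0.14, 0.02 ± 0.048 and 0.05 ± 0.053. Nanog lay at 58.6%, 54.4% and 50.8% on B6 (0.27 ± 0.061, adjusted p = 0.0012). In 10 of the 30 genes (33.3%) the ratio differed between TX1072 and the deletion lines by the interaction test described below, beside 7.93% of all members. The part of count depth in this share was not tested. Among the 10 genes, Klf5 lay at 51.0% and 50.9% on B6 in the deletion lines. Dppa5a moved from 60.8%, 63.4% and 51.0% in TX1072 to between 40.7% and 42.5% in the 6 other libraries.

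**Figure D3:**
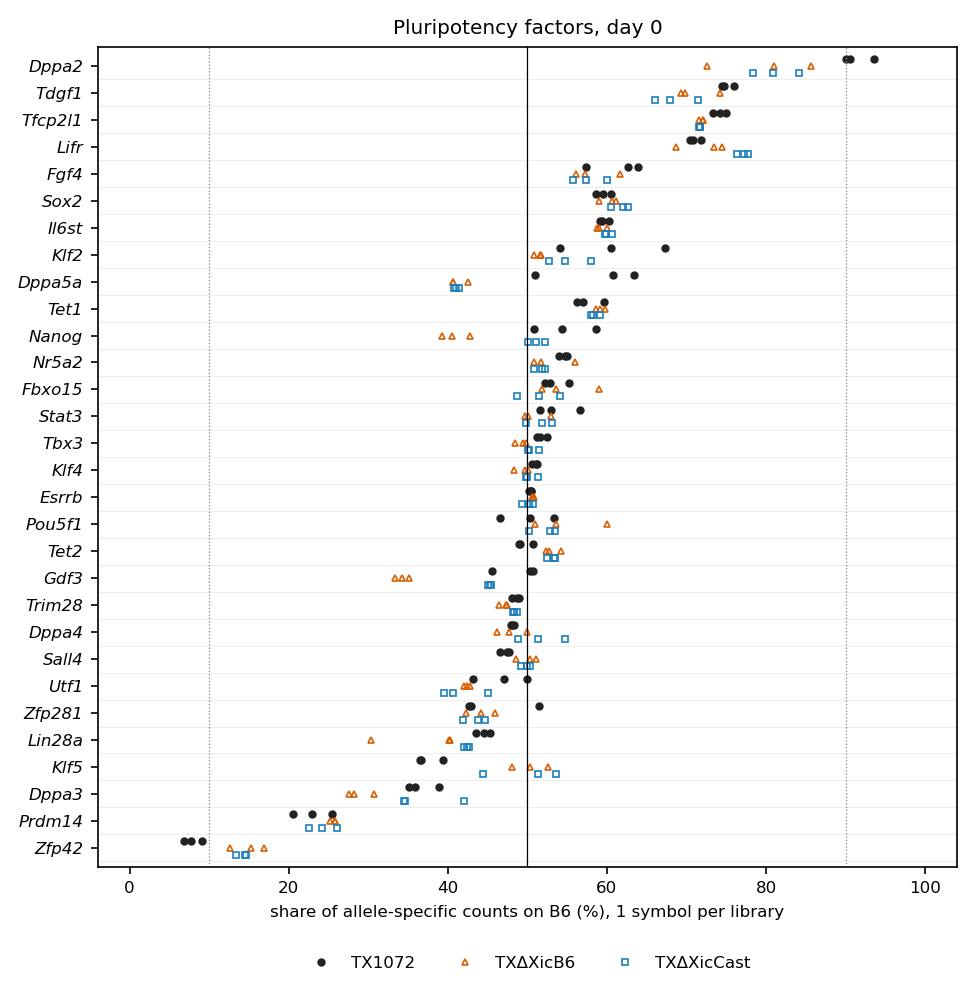
Share of AS counts on B6 in percent for the 30 pluripotency factors, sorted by the fitted ratio in TX1072, 1 symbol per library of TX1072 (filled circles), TXΔXicB6 (triangles) and TXΔXicCast (squares). Dppa2, Tdgf1, Tfcp2l1 and Lifr lie to the right and Zfp42 and Prdm14 to the left in all 9 libraries, while Pou5f1, Esrrb, Klf4 and Tbx3 lie near 50%.

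Most imprinted genes with enough counts, 38 of 66 listed, had bulk counts from both alleles, although the single cells described below differed for Snrpn. Imprinted genes are expressed from the maternal or the paternal copy in most tissues, by DNA methylation set in the germ line. Of 19 members on the list of paternally expressed genes, 7 were higher on B6, 6 were higher on Cast and 6 were not called (median log2 ratio -0.04), that is 68.4% called beside 49% of all members, and 21.1% reached 2-fold beside 14.4%. Of 19 members on the list of maternally expressed genes, 3 were higher on B6, 5 were higher on Cast and 11 were not called (median -0.08), that is 42.1% called and 26.3% at 2-fold. Snrpn, the imprinted gene of the Prader-Willi region, lay at 47.4%, 51.5% and 48.9% on B6, and Igf2r, the maternally expressed receptor that degrades Igf2, at 47.6%, 49.0% and 47.0%. Neither was called, nor were H19 (102 counts in all) or Ube3a.

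The skewed genes included a group of neighbouring genes on chromosome 12. Meg3, Rian and Mirg are non-coding RNAs of the Dlk1-Dio3 cluster that are maternally expressed, and Dio3, which encodes the deiodinase that inactivates thyroid hormone, lies at the other end of the cluster and is paternally expressed. Meg3 (chr12:109541001-109571726) had 10.7%, 15.5% and 12.3% of its counts on B6, a log2 ratio of -2.80 ± 0.16 (SE, adjusted p = 3.4e-11). Rian (chr12:109603940-109661716) had 11.8%, 12.7% and 14.4% (-2.76 ± 0.069, adjusted p = 1.57e-16), and Mirg had 11.1%, 12.5% and 16.6% (-2.73 ± 0.13, adjusted p = 2.36e-12). Dio3 (chr12:110279068-110281097) had 2, 0 and 3 B6 against 48, 52 and 37 Cast counts (-4.67 ± 0.45, adjusted p = 6.68e-08), with -4.02 without replicate 2 and -5.48 without replicate 3. All 4 genes of the cluster were thus higher on the same, Cast, chromosome, also in the deletion lines, where the ratios were -2.62, -2.80, -2.67 and -3.26. The annotations of Meg3, Rian and Mirg share exon bases with other genes on the same strand, so a few of their reads may belong to the neighbour.

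Outside this cluster Ano1, a calcium-activated chloride channel, had 6.03%, 6.16% and 16.3% on B6 (log2 ratio -3.60 ± 0.25, adjusted p = 6.35e-10), and Inpp5f, an inositol phosphatase, had 16.4%, 20.2% and 13.2% (-2.30 ± 0.205, adjusted p = 2.13e-08). Usp29, a ubiquitin peptidase gene next to Peg3, had 79.7%, 77.3% and 84.4% (1.97 ± 0.23, adjusted p = 7.29e-07). Plagl1 (Zac1), a zinc finger regulator of other imprinted genes, had 66.4%, 67.3% and 70.6% on B6 (1.10 ± 0.067, adjusted p = 9.17e-11) and 67.0% to 69.3% in the deletion lines. In 1 of the 38 imprinted members, Peg10, the ratio differed between TX1072 and the deletion lines, beside 7.93% of all members.

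**Figure D4:**
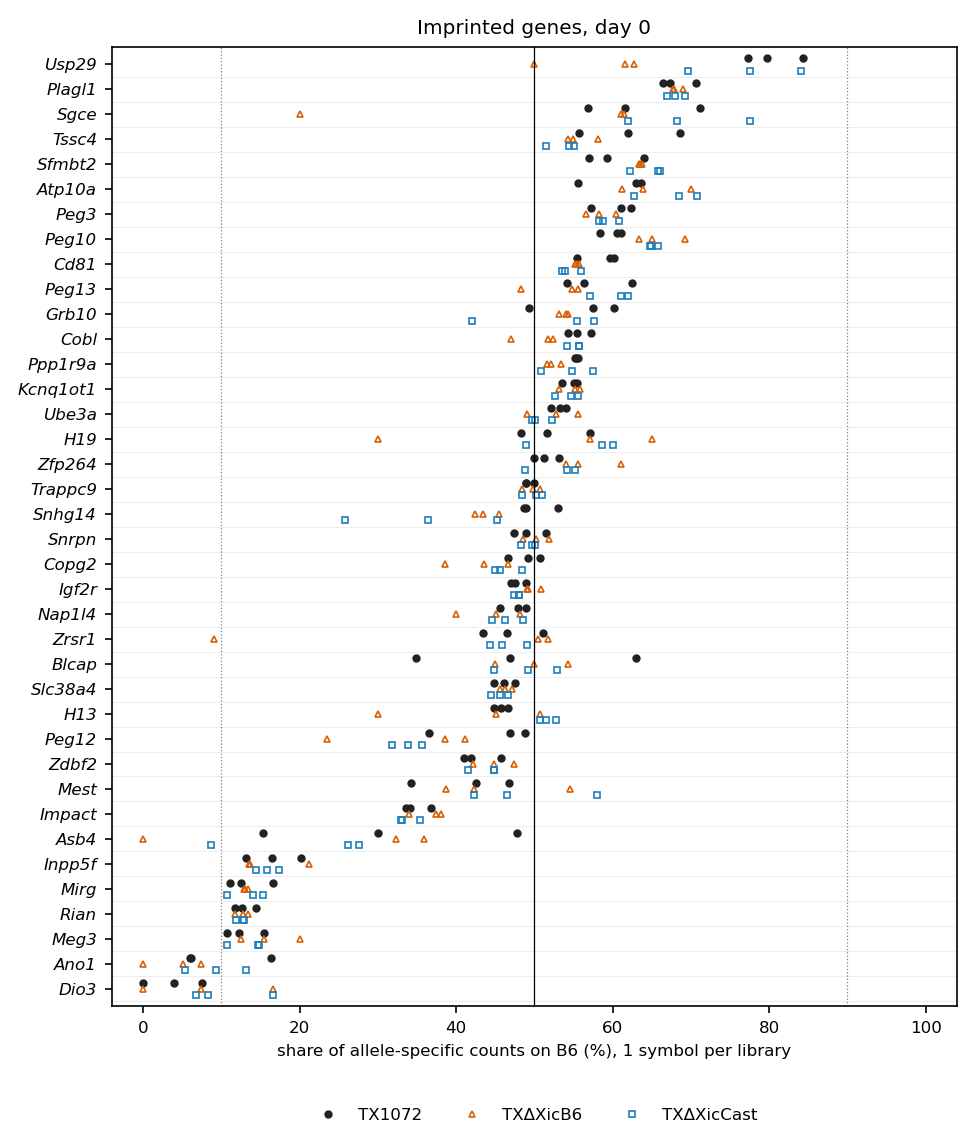
Share of AS counts on B6 in percent for the 38 imprinted members, sorted by the fitted ratio in TX1072, 1 symbol per library of TX1072 (filled circles), TXΔXicB6 (triangles) and TXΔXicCast (squares). Mirg, Rian, Meg3, Ano1 and Dio3 lie below 20% in TX1072, and genes such as Snrpn, Igf2r and H19 lie near 50%, with a wide scatter for genes of few counts.

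Regulators of chromatin and X inactivation held called genes but none with a 2-fold difference, beside 14.4% of all members. Of 21 autosomal interactors of Xist and silencing factors, 9 were higher on B6, 1 was higher on Cast and 11 were not called (median log2 ratio 0.14 in TX1072 and 0.01 in the deletion lines), that is 47.6% called beside 49% of all members. The largest ratios belonged to Polycomb genes. Rnf2, the ubiquitin ligase of Polycomb repressive complex PRC1, lay at 61.7%, 63.8% and 58.0% on B6 (0.67 ± 0.099, adjusted p = 1.62e-05). The PRC2 methyltransferase Ezh2 lay at 60.3%, 58.7% and 52.1% (0.43 ± 0.078, adjusted p = 0.000142) and its partner Eed at 56.6%, 55.2% and 54.8% (0.32 ± 0.064, adjusted p = 0.000331). Without the library term the calls of Ezh2 and Eed were lost, and in the deletion lines Ezh2 lay at 45.4% to 49.1%. The log2 ratio of Eed was 0.47 further towards B6 in the deletion lines than in TX1072, and it differed by -0.99 between them (TXΔXicB6 minus TXΔXicCast). Spen, the repressor recruited by the A-repeat of Xist, was not called (-0.07).

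Of 13 writers and erasers of DNA methylation, 2 were higher on B6, 6 were higher on Cast and 5 were not called (median log2 ratio -0.25 in TX1072 and 0.02 in the deletion lines), that is 61.5% called beside 49% of all members. None of the 13 reached 2-fold, beside 14.4% of all members. Tdg, the glycosylase that removes oxidized methylcytosine, lay at 39.0%, 30.9% and 37.0% on B6 (-0.83 ± 0.15, adjusted p = 0.000113), but at 49.8% and 53.6% in the deletion lines, and it has both versions of SNP stretches elsewhere. The de novo methyltransferase Dnmt3a lay at 30.95%, 42.2% and 39.6% (-0.78 ± 0.15, adjusted p = 0.000205) and the dioxygenase Tet1 at 56.9%, 59.6% and 56.3% (0.44 ± 0.056, adjusted p = 2.12e-06). The call of Tet1 was lost without the library term.

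Genes of innate immunity and detoxification differed in both directions. Of 14 members of the interferon and innate immune list, 6 were higher on B6, 3 were higher on Cast and 5 were not called (median log2 ratio 0.35 in TX1072 and -0.09 in the deletion lines). That is 64.3% called beside 49% of all members, and 14.3% at 2-fold beside 14.4%. Ddx58, which encodes the viral RNA sensor RIG-I, lay at 89.1%, 84.8% and 83.3% on B6 (2.64 ± 0.19, adjusted p = 7.87e-10). Irf1, an interferon regulatory factor, lay at 67.3%, 65.4% and 59.4% (0.86 ± 0.15, adjusted p = 7.67e-05). Apobec3, a retrovirus restriction factor and the single member of the list of genes with known B6 variants, lay at 57.9%, 63.2% and 57.7% (0.57 ± 0.072, adjusted p = 2.23e-06). Of 16 members of the glutathione S-transferase and detoxification list, 6 were higher on B6, 4 were higher on Cast and 6 were not called (median -0.08), that is 62.5% called and 37.5% at 2-fold. The enzymes Gstz1 and Gstp2 had B6 shares of 10.8% to 16.7% and 14.0% to 22.2% and log2 ratios of -2.62 ± 0.11 and -2.35 ± 0.12. Gstp2 has both versions of SNP stretches elsewhere, and the part of read placement in its ratio was not tested. Gclm, the modifier subunit of the enzyme that starts glutathione synthesis, had 87 B6 and 29 Cast counts, 45 and 23, and 53 and 26 (1.23 ± 0.21, adjusted p = 8.86e-05).

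The zinc finger, histocompatibility, mitochondrial ribosomal and histone families were counted in the same way. Of 261 zinc finger genes named Zfp, 70 were higher on B6, 40 were higher on Cast and 151 were not called (median log2 ratio 0.11). That is 42.1% called beside 49% of all members, and 8.05% at 2-fold beside 14.4%. Apart from Zfp42, the largest ratios belonged to Zfp59 (2.33 ± 0.26) and Zfp69 (-1.95 ± 0.29). Of 6 H2 genes of the major histocompatibility complex, 3 were higher on B6, each at least 2-fold, and 3 were not called (median 0.87), that is 50% called beside 49% of all members. H2-K1, a class I antigen-presenting molecule, had 106 B6 and 18 Cast counts over the 3 libraries (2.54 ± 0.33), the class II gene H2-Ab1 had 348 and 109 (1.68 ± 0.185), and H2-M5 had 564 and 279 (1.02 ± 0.12). H2-K1 has near-identical copies with both versions of a SNP stretch. Of 70 mitochondrial ribosomal protein genes, 25 were higher on B6, 16 were higher on Cast and 29 were not called (median 0.02), that is 58.6% called beside 49% of all members, and 12.9% at 2-fold beside 14.4%. The smallest B6 shares among them belonged to Mrps36, with 2 B6 and 114 Cast counts (ratio 57.0, exact interval 15.4 to 476), Mrps18b (12.2%, 10.8% and 12.7%) and Mrpl23 (29.4%, 18.2% and 13.9%). Of 34 histone genes, 13 were higher on B6, 13 were higher on Cast and 8 were not called (median 0.13), that is 76.5% called beside 49% of all members, and 35.3% at 2-fold beside 14.4%. The largest ratios belonged to H2ac20 (581 B6 and 3 Cast counts), H2bc4 (log2 ratio -4.82 ± 0.083) and H2bc14 (2.49 ± 0.071). Replication-dependent histones are encoded by many copies of similar sequence. A SNP stretch elsewhere was found for 2 of the 34 genes, these 3 were not searched, and the part of read placement was not tested.

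Cytosolic ribosomal protein genes held many large ratios. Of 73 members, 25 were higher on B6, 31 were higher on Cast and 17 were not called, that is 76.7% called beside 49% of all members, and 33 of them (45.2%) reached 2-fold, beside 14.4% of all members. The median absolute log2 ratio was 0.90 beside 0.30 over all members, although the median with its sign was -0.03, and 15 of the 180 monoallelic genes were on this list. Fau (10 B6 and 1988 Cast counts) and Rps3a1 (5422 and 236) were also monoallelic, but the list, made by symbol, did not hold them. Rplp0, the acidic stalk protein P0 at chr5:115559467-115563727, had 14287 B6 and 108 Cast counts, 11175 and 104, and 9653 and 44 (log2 ratio 7.11 ± 0.098, SE, adjusted p = 5.86e-20). Rps29 of the small subunit was skewed the other way, with 20, 17 and 13 B6 against 3103, 1501 and 1650 Cast counts (-6.95 ± 0.10). Both proteins are parts of the cytosolic ribosome.

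These ratios were much smaller in the deletion lines. The log2 ratio of Rplp0 was 1.72 ± 0.051 there. Rps29 went from B6 shares of 0.640%, 1.12% and 0.782% in TX1072 to between 49.9% and 61.8%, and Rpl38 from 0.927%, 1.35% and 0.592% to between 41.4% and 54.7%. Fau, a fusion of a ubiquitin-like domain with ribosomal protein S30, went from 0.983%, 0.255% and 0.199% to between 20.4% and 25.9%, and Rpl19 from 1.72%, 2.38% and 1.85% to between 25.6% and 29.7%. Rps19 of the small subunit went from 92.5%, 93.8% and 92.1% to between 73.8% and 77.8%. Over the list, the ratio lay closer to 0 in the deletion lines in 55 of 73 genes, beside 55.4% of all members, and the median absolute log2 ratio was 0.37, while it was 0.26 over all members. By the interaction of allele with line in edgeR, 50 of the 73 genes (68.5%) differed between TX1072 and the deletion lines, beside 7.93% of all members.

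Ribosomal protein genes have many processed copies elsewhere in the genome, so the neighbourhood of each SNP was compared with other transcripts. For every SNP in 1 coding transcript of a member, the stretch of 51 transcript bases with the SNP at base 26 was searched, in its B6 and its Cast version and on both strands, in the GENCODE transcripts of genes elsewhere. This measure was chosen after the values had been seen. The stretches of 3 ribosomal protein genes are shown because a version of each occurs in another gene, with the B6 base of the SNP in capitals.
Rpl38, chr11:114671800-114671850, plus strand: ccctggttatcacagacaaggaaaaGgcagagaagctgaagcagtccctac
Fau, chr19:6059371-6059421, plus strand: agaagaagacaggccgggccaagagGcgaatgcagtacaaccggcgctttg
Rplp0, chr5:115562445-115562495, plus strand: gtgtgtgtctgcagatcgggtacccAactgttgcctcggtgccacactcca

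Coordinates are those of GRCm38 with GENCODE vM21, and the substitutions, counted from 1 at the 5′ end, are G26A for Rpl38, G26A for Fau and A26G for Rplp0. The B6 version was found in transcripts of 2 other genes for Rpl38 and 1 for Fau, and the Cast version in none. For Rplp0 the Cast version was found in 2 other genes and the B6 version in none. In each of these 3 genes, which were picked for display, the allele whose version occurs elsewhere was the one with few counts in TX1072. The transcript of Rplp0 holds 6 SNPs, and the others are not shown. Zfp42, with a Cast version elsewhere, was higher on Cast.

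Of 11 ribosomal protein genes on the list with only B6 stretches elsewhere, 10 lay below 0 (median log2 ratio -2.15), and of 7 with only Cast stretches elsewhere, 7 lay above 0 (median 3.72). Between TX1072 and the deletion lines 9 and 7 of them differed. So did 16 of the 19 with both versions elsewhere and 14 of the 26 with no stretch elsewhere (53.8%), beside 7.93% of all members. Those 26 held 2 genes with at least 2-fold towards B6 and 6 towards Cast. Among all members, 227 had only B6 stretches elsewhere, of which 61 were at least 2-fold higher on Cast and 16 on B6. In contrast, 232 had only Cast stretches elsewhere, of which 12 were at least 2-fold higher on Cast and 51 on B6. The 8279 genes with no stretch elsewhere held 583 genes with at least 2-fold towards B6 and 434 towards Cast. Of the 8279 genes, 5.75% differed between TX1072 and the deletion lines, against 36.6% and 32.3% of the 227 and 232 genes. The part of read placement in the ratios was not tested. Rps29 had a single SNP with no stretch elsewhere and Rps19 had 9, and both genes differed between TX1072 and the deletion lines. Without the 723 genes that had a stretch elsewhere, 680 genes remained at 2-fold towards B6 and 487 towards Cast, and 87 and 54 genes were monoallelic.

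Among the most counted genes with 2-fold differences, 3 further genes had a stretch elsewhere. Eef1a1, the elongation factor that delivers aminoacyl-tRNA to the ribosome, had 96.0%, 96.4% and 94.98% on B6 (log2 ratio 4.55 ± 0.072), but 0.72 ± 0.054 in the deletion lines, with Cast stretches in 3 other genes. Npm1, the nucleolar protein nucleophosmin, had 73.4%, 75.4% and 76.6% (1.60 ± 0.044), but 0.53 ± 0.028 in the deletion lines, again with Cast stretches in 3 other genes. Prdx1, a peroxiredoxin, had 25.9%, 30.6% and 28.7% on B6 (-1.34 ± 0.056), but 0.16 ± 0.039 in the deletion lines, with a B6 stretch in 1 other gene.

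Most allelic differences were found again in libraries that the TX1072 test did not use. In the 6 libraries of the deletion lines, with the same genes and the same test, 3199 genes were higher on B6 (33.6%) and 2394 on Cast (25.1%). They held 2269 of the 2739 genes called towards B6 in TX1072 (82.8% of the TX1072 genes and 70.9% of the genes of the deletion lines) and 1589 of the 1927 genes called towards Cast (82.5% and 66.4%). The opposite direction was called for 42 and 40 genes. Without the library term in the deletion lines, 1376 and 1020 genes were shared. At least 2-fold were 669 genes towards B6 (7.02%) and 512 towards Cast (5.37%) in the deletion lines, of which 573 and 442 were also at least 2-fold in TX1072. Of the genes with at least 2-fold difference in TX1072, 95.1% of those towards B6 and 94.9% of those towards Cast were called in the same direction. Of the 180 monoallelic genes, 162 lay on the same side of 50% in all 6 libraries and 56 (31.1%) differed between TX1072 and the deletion lines by the interaction test. Across the 9526 genes the fitted log2 ratios of TX1072 and of the deletion lines had Pearson's r = 0.90 and Spearman's rho = 0.84. These describe likeness across genes, which are not independent replicates and share their SNPs and annotation.

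**Figure D5:**
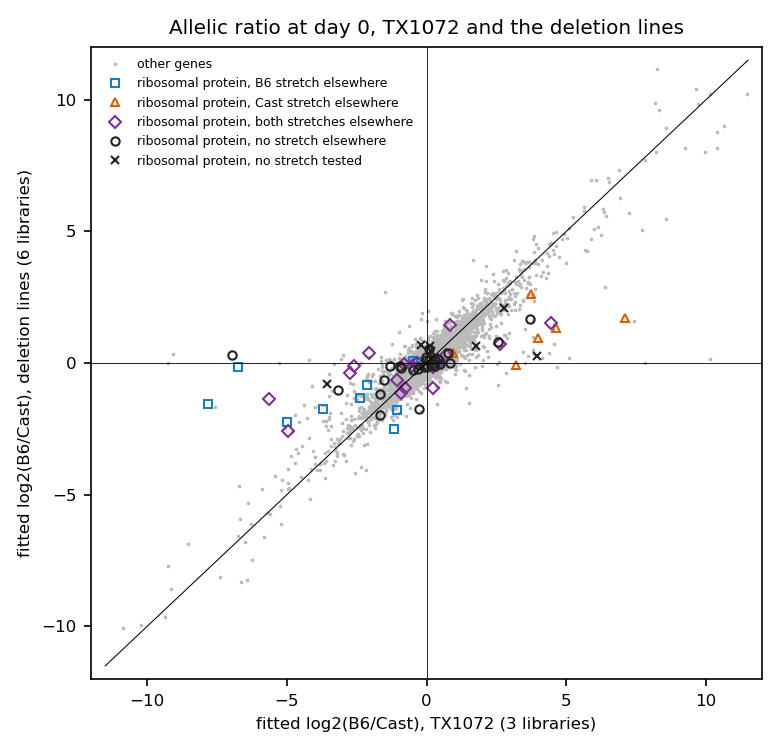
Fitted log2 ratio of B6 over Cast per gene in TX1072 (3 libraries, x axis) against that in the deletion lines (6 libraries, y axis), with ribosomal protein genes marked by whether a B6 or Cast SNP stretch occurs in another gene. Most grey points follow the diagonal of equal ratios, whereas ribosomal protein genes spread widely on the x axis but only from -2.56 to 2.61 on the y axis, those with B6 stretches elsewhere mostly to the left and those with Cast stretches elsewhere to the right.

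The ratio differed between TX1072 and the mean of both deletion lines in 351 genes that moved towards B6 in the deletion lines (3.68%) and in 404 that moved towards Cast (4.24%). Without the library term it differed in 94 and 79 genes. The smallest p-values belonged to the ribosomal protein genes Rplp0, Rps29 and Rpl19. Genes at an intermediate ratio were also among them, such as Spp1, at 73.2% on B6 in TXΔXicB6 and 79.3% in TXΔXicCast against 72.0% to 72.5% in TX1072.

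The deletion lines differed from each other in few genes, of which a part lay together on chromosomes. Both were prepared with the same kit, but the RNA of undifferentiated TXΔXicCast was fragmented more mildly because it was degraded, so line and fragmentation cannot be told apart. By the interaction test, 81 genes had a ratio more towards B6 in TXΔXicB6 (0.85%) and 107 more towards Cast (1.12%). Without the library term the counts were 4 and 0, so that no call towards Cast, that of Ttn included, was kept, and with DESeq2 they were 31 and 47. Without that term edgeR gave 180 genes in either direction at an unadjusted p under 0.05. Without TXΔXicB6 replicate 2 the counts were 35 and 54, without TXΔXicB6 replicate 3 they were 44 and 55, and without TXΔXicCast replicate 3 they were 34 and 59. In windows of 10 Mb, the 4 windows with the most such genes held 62 of the 188 (33.0%) but 1.62% of all members, and the other 126 genes lay in 79 windows. On chromosome 6 from 120 to 130 Mb, 27 of 62 members were more towards Cast in TXΔXicB6, and the median log2 ratio of the window was -0.52 in TXΔXicB6, -0.04 in TXΔXicCast and -0.01 in TX1072. On chromosome 6 from 140 to 150 Mb, 12 of 28 members did so, with medians of -0.40, 0.07 and 0.11. In the window between them, from 130 to 140 Mb, 4 of 19 members did so, with medians of -0.29, 0.23 and 0.25. The shift of whole windows included 3 pluripotency genes on chromosome 6, Nanog, Gdf3 and Dppa3.

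Nanog lay at 40.3% on B6 in TXΔXicB6 and at 51.3% in TXΔXicCast (difference in log2 ratio -0.61, adjusted p = 2.82e-06), and Gdf3, a Tgf-β family ligand, at 34.7% and 45.2% (-0.64, adjusted p = 8.06e-06). Dppa3 lay at 29.1% and 35.7% (-0.47, adjusted p = 0.0109). On chromosome 2 from 0 to 10 Mb the shift lay in the other line, with a median of -0.45 in TXΔXicCast against -0.03 in TXΔXicB6 and -0.02 in TX1072. On chromosome 7 from 90 to 100 Mb, 11 of 39 members were more towards B6 and 3 more towards Cast in TXΔXicB6. Among those towards B6 were Rsf1, a chromatin remodelling subunit (70.3% on B6 in TXΔXicB6 and 53.7% in TXΔXicCast, adjusted p = 1.47e-11), and Ndufc2, a subunit of respiratory complex I (66.1% and 46.9%, adjusted p = 7.5e-11). Ttn, which encodes the giant sarcomere protein titin and lies on chromosome 2, was at 39.9%, 41.3% and 40.4% on B6 in TX1072 and at 41.3% in TXΔXicB6, but at 58.5% in TXΔXicCast (adjusted p = 2.6e-13). A smaller shift ran along chromosome 11 (800 members). Its median log2 ratio was -0.052, -0.055 and -0.046 in the TXΔXicB6 libraries, against 0.036 to 0.074 in TX1072 and 0.012 to 0.035 in TXΔXicCast. In each of its windows the median was lower in TXΔXicB6 than in TX1072 and TXΔXicCast. Copy number and clonal state of these windows and of chromosome 11 were not measured here.

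Single cells of day 0 gave a further view of the same genes with another library type. Counts of unique molecular identifiers (UMIs) near the 3′ end were summed over the 400 capture sites of day 0, which had a median of 125996 UMIs each. TX1072 replicate 1 came from the same population, so the cells are not independent of it, and cells are not replicates. Of the genes with at least 2-fold difference and 50 or more AS UMIs, 502 of 520 towards B6 (96.5%) and 368 of 389 towards Cast (94.6%) had more UMIs on the same allele, where 53.4% of all 7433 such members had more on B6. Gc had 2986 UMIs on B6 and 0 on Cast, Lncenc1 had 3359 and 6, Sytl3 had 0 and 342, and AU020206 had 8 and 1894. These genes were thus on the allele seen in bulk. Tfcp2l1 had 71.8% of its UMIs on B6, close to its bulk shares, and Zfp42 had 25.7%, above them. Meg3 had 13.3% and Rian 11.2%, as in bulk, but Snrpn, between 47.4% and 51.9% in every bulk library, had 7 UMIs on B6 and 156 on Cast. The exons of Snrpn overlap those of other genes on both strands. Plagl1, at 66.4% to 70.6% in bulk, had 44.8% of its UMIs on B6. Of the ribosomal protein genes, Rplp0 had 99.8% of its UMIs on B6 and Rpl38 1.10%, both near the TX1072 bulk libraries. Further genes of the family did not follow bulk. Rpl35a, at 3.72 on the log2 scale in TX1072, had 158 UMIs on B6 and 447 on Cast, and Rpl23a, at -5.01, had 31 and 36. Rps29, with 15 and 12, and Rplp1, at 3.96 in TX1072 and with 18 and 10, had fewer than 50 AS UMIs, too few for this comparison. Of the 15 monoallelic ribosomal protein genes on the list, 12 had 50 or more AS UMIs, and 10 of these lay beyond 90% on the allele seen in bulk. Outside the list, Rps3a1 had 8694 UMIs on B6 and 23 on Cast, and Fau had 0 and 1.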

How the data were processed

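Bulk RNA-seq of day 0 was used from 3 libraries each of TX1072, TXΔXicB6 and TXΔXicCast. Per the labels and the study's methods, the authors aligned reads with STAR 2.5.2b to mm10 masked at strain SNPs, split them by allele and deposited gene counts from featureCounts for all reads and for either allele. The counting strand is not given in the sources used here. The deposited UMI counts of single cells were summed over the capture sites of day 0, and the 1600 columns of other days in each table were not used. The authors' counts were used as deposited, without 1 row that names no gene.

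Each gene was fitted with edgeR 4.0.16 (quasi-likelihood) in R 4.3.3 with the library as a block and the allele as a term, both alleles of a library sharing a library size. Line differences were interactions of allele and line. P-values were adjusted after Benjamini and Hochberg over all 9840 genes with 100 counts, and 0.05 was the limit. DESeq2 1.42.0 was an alternative, as were other normalization factors, limits and each library left out. Log2 medians per library used a pseudocount of 1. Alleles of a library share its cells, and their deviations correlated at 0.74, 0.74 and 0.70. On simulated counts of the TX1072 allele test, 61.2% of genes changed 1.5-fold and 97% of those changed 2-fold were called, and 18 of 190 calls were false. The simulation used a single dispersion for all genes and few changed genes, so these shares need not hold for the data. Other steps used Python 3.11.15 with pandas 2.3.3, numpy 2.4.6 and scipy 1.17.1.

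Of the symbols, 51444 matched GENCODE and 439 RefSeq, and 125 matched neither. The rule named 61 genes with annotated symbols: the 8 most skewed to either allele with 500 or more counts, the 6 in each direction with the most counts among 2-fold calls, the 3 largest called ratios of each list, monoallelic imprinted genes, and the 3 smallest p-values of each interaction test. Of these, 2 are not reported here. Other genes were chosen after their values were seen. The pattern for histone genes was widened to current symbols. Members and lists were chosen with earlier results of these data known. The libraries of a line are biological replicates per the study, each from a single clone, so p-values measure the spread within that clone. A count of 0 allows up to 3 counts over the group, and intervals cover counting error only.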

Additional observations from a re-analysis of the deposited data

Results flagged for a closer look

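The allelic log2 ratio differed between lines, by the interaction of allele with line in edgeR (Benjamini-Hochberg adjusted), in 755 genes between TX1072 and the deletion lines and in 188 genes between TXΔXicB6 and TXΔXicCast. Among the named genes these were 25 and 8. Of the 25, 11 had a SNP stretch in another gene and 20 lay closer to 0 in the deletion lines, as did 55.4% of all members. Many named genes were chosen for large ratios in TX1072, which by itself favours ratios closer to 0 in other libraries. Their share therefore cannot be compared with that of all members.

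Differences are given as the log2 ratio in the deletion lines minus that in TX1072. Of the named ribosomal protein and translation genes, Rps29 differed by 7.26, Rpl38 by 6.57, Fau by 5.93 and Rpl19 by 4.26, all towards B6 in the deletion lines. Rplp0 differed by -5.39, Eef1a1 by -3.84, Rps19 by -2.02 and the nucleolar gene Npm1 by -1.07, and the mitochondrial ribosomal gene Mrps18b by 1.35. Of the histone genes, H2ac20 differed by -5.90, H2bc4 by 2.18 and H2bc14 by -1.06. The TX1072 log2 ratio of H2ac20 rests on 3 Cast counts, and its value of 7.43 was 6.59 without replicate 1 and 8.28 without replicate 2. Among genes of pluripotency and signalling, Zfp42 differed by 0.99, Dppa2 by -1.13, Tfcp2l1 by -0.18 and Spp1 by 0.31. Of the chromatin genes, Ezh2 differed by -0.59, Eed by 0.47, Tdg by 0.94 and Rsf1 by 0.56. The zinc finger gene Zfp69 differed by 1.45, Prdx1 by 1.49, Echdc2 by -0.24, Ttn by 0.54 and Ndufc2 by 0.32.

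Between the deletion lines, as TXΔXicB6 minus TXΔXicCast, Ndufc2 differed by 1.13, Rsf1 by 1.01, Gstp2 by 0.80 and Echdc2 by 0.41 towards B6. Ttn differed by -1.03, Eed by -0.99, Spp1 by -0.47 and H2bc4 by -0.41.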

How the results depend on the processing

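The pairing of alleles within a library had a large part in the number of calls. With no replicate block, 1325 genes were higher on B6 and 944 on Cast, 1376 and 1020 calls were shared with the deletion lines, 94 and 79 genes differed between TX1072 and the deletion lines, and 4 and 0 between the deletion lines, where edgeR gave 180 genes at an unadjusted p under 0.05, 102 of them towards Cast. DESeq2 called 1660 and 1116 genes, 224 and 248 line differences, and 31 and 47 differences between the deletion lines. At least 1.5-fold were 1482 and 1051 genes, at least 4-fold 288 and 213, and with 500 or more counts 345 and 256 reached 2-fold. Monoallelic genes numbered 235 and 164 at 80%, 49 and 43 at 95%, 182 and 135 with 20 or more counts and 45 and 30 with 500 or more. Leaving out each library in turn gave 34 to 76 and 54 to 95 differences between the deletion lines. TMM factors per allele gave 2387 and 2254 calls. Of 366 values of named genes under alternatives, 362 kept their direction and side of the threshold. The other 4, all without the block, kept their direction but were no longer called (the TX1072 ratios of Ezh2, Eed, Tet1 and Ttn), and none reversed. The ratio of Fau was -8.63 without TX1072 replicate 1 and -7.58 with it. In counts simulated with a single dispersion for all genes and few changed genes, 61.2% of 1.5-fold changes were called in the TX1072 allele test. Far more genes are called in the data, so this share need not hold there. The causes of the changes between settings were not tested.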

Other observations

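Allelic ratios were also summarised along the chromosomes, in windows of 10 Mb. Of 230 windows with 10 or more members, 216 had a median log2 ratio within 0.25 of 0 in TX1072. The highest median, 0.98, belonged to chromosome 1 from 110 to 120 Mb, the window of Tfcp2l1, in which 9 of 11 members were higher on B6 and 0 on Cast. The medians there were 1.07 and 1.12 in TXΔXicB6 and TXΔXicCast.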
